A study of Mus musculus with 16 samples.

Results

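Far peaks are here the consensus H3K27me3 peaks on chromosomes 1 to 19 except 11 that lie more than 100000 bp from the span of the nearest protein-coding gene. There were 22200 of them, 23% of the 96359 peaks on these 18 chromosomes and 21.6% of all 102957 peaks of the study. They were chosen by position in the mm10 build alone, with no use of read counts, and the other 74159 peaks of the same chromosomes serve as their comparison. Gene spans came from the RefSeq table of GRCm38.p6, the same build as mm10, which holds no exons, introns or UTRs. H3K27me3 was measured by ChIP-seq, with input DNA beside it, in mouse embryonic stem cells (mESC) kept in serum medium with LIF, PD0325901 and CHIR99021. The 4 lines were a Firre KO line with an inducible Firre transgene (KO transgene), a line labelled Firre KO without it (the line labelled KO control), a WT line with the inducible transgene (WT transgene) and a WT line (WT control). Doxycycline, the agent that switches the transgene on, was given to each for 48 h or 0 h. Every line and time had 1 H3K27me3 and 1 input library, so no condition was replicated. The labels name no separate clones or cultures, so p-values measure only the spread between these libraries, which may be technical.

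H3K27me3 is trimethylated lysine of histone H3, written by Polycomb repressive complex 2 and best known at silenced developmental genes, where it covers CpG-rich promoters. Away from coding genes it also lies over non-coding RNA genes, enhancers of silenced genes and broad intergenic stretches called gene deserts, which often flank regulators of development and of neuronal adhesion. Firre is a nuclear long non-coding RNA made from the X chromosome that has been linked to nuclear organisation and to H3K27me3 on the inactive X.

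Some far peaks hold small RNA genes. Of the 22200, 16 overlapped an annotated miRNA gene, and 15 held the mature sequence of at least 1 miRNA, 28 distinct mature miRNAs from 18 genes in all. The sequences below are from RefSeq (GRCm38.p6), written 5′ to 3′ with the seed (bases 2 to 8), which pairs with target mRNAs, in capitals. The first pair comes from Mir137, a brain-enriched miRNA gene, whose peak stood highest over input among these 15. The next 8 come from 4 genes of the imprinted Dlk1 to Mirg cluster that share 1 peak, which was lower in KO lines. The last is made from both Mir125b-1 and Mir125b-2, whose peaks lie on different chromosomes.
mmu-miR-137-5p (chr3:118433865-118433887, plus strand): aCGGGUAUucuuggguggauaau
mmu-miR-137-3p (chr3:118433901-118433923, plus strand): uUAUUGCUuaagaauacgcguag
mmu-miR-541-5p (chr12:109742422-109742446, plus strand): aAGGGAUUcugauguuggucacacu
mmu-miR-541-3p (chr12:109742466-109742487, plus strand): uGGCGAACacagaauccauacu
mmu-miR-409-5p (chr12:109743172-109743194, plus strand): aGGUUACCcgagcaacuuugcau
mmu-miR-409-3p (chr12:109743204-109743225, plus strand): gAAUGUUGcucggugaaccccu
mmu-miR-412-5p (chr12:109743303-109743325, plus strand): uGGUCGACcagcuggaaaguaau
mmu-miR-412-3p (chr12:109743340-109743359, plus strand): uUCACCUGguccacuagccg
mmu-miR-369-5p (chr12:109743431-109743452, plus strand): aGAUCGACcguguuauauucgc
mmu-miR-369-3p (chr12:109743466-109743486, plus strand): aAUAAUACaugguugaucuuu
mmu-miR-125b-5p (chr9:41581940-41581961, plus strand; chr16:77646279-77646300, plus strand): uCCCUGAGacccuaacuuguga

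Long non-coding RNA (lncRNA) genes were the most common annotation under far peaks. The promoters of 3 of them, 250 bases before to 50 after the start, are printed as 1 promoter rich in CpG, 1 between and 1 poor in CpG, all in far peaks called higher than input. CpG dinucleotides are in capitals (RefSeq, GRCm38.p6, strand of the gene). They are the promoters with 38 CpG in the peak 132 kb from Topaz1, with 18 CpG in a peak over Lncpint, a p53-regulated lncRNA, and with 2 CpG in the peak 329 kb from Tshz2.
9530059O14Rik (chr9:122572251-122572550, plus strand): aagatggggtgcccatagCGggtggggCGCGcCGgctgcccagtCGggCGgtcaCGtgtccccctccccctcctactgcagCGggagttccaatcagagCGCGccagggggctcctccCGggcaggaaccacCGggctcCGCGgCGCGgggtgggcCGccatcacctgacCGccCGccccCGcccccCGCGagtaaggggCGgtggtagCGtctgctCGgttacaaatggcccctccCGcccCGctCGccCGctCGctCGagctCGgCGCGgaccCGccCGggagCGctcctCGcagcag
Lncpint (chr6:31218425-31218724, minus strand): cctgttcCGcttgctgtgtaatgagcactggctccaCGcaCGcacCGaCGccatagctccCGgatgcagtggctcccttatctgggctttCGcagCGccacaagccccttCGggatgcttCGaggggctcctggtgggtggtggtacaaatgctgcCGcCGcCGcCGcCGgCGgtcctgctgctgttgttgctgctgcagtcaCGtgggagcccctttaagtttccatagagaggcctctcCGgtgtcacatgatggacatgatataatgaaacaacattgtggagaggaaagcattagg
Gm46788 (chr2:169298407-169298706, minus strand): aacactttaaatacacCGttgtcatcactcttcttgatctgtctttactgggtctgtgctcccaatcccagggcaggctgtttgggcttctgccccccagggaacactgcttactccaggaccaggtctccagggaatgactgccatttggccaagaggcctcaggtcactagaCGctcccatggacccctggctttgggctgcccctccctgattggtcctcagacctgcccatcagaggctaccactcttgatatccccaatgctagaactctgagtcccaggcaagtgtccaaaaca

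Total counts over all consensus peaks ran from 10380781 to 14787938 in the H3K27me3 libraries and from 3340654 to 6244333 in input. Of the 145 listed developmental regulators, 136 had a peak called higher than input within 2000 bp, against 1 of 10 pluripotency genes. Tbx3 was on both lists, which were chosen with earlier results of these data known, and no share over all coding genes was taken. The peak in the Firre gene was read as a check of the lines. Input there was 10.7 times the mean of chromosome X peaks in KO transgene, 11.1 in the line labelled KO control, 14.9 in WT transgene and 0.694 in WT control. The peak reads copies of Firre sequence and not the deletion itself. The line labelled KO control has no transgene by its label, so its input goes against that label. H3K27me3 counts at this peak were 47 at 48 h and 172 at 0 h in KO transgene, 57 and 263 in WT transgene, 177 and 164 for the line labelled KO control, and 0 and 1 in WT control. The count was thus lower at 48 h in both transgene lines and not in the line labelled KO control. That line enters every KO value below and, as a control line, every comparison of transgene and of induction. The sample titles put both KO lines in one experiment and both WT lines in another, so background and experiment cannot be told apart.

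Far peaks were small and shallow. Their median width was 1767 bp (range 308 to 93123 bp), against 2536 bp for the other peaks, and together they covered 68.4 Mb, against 368 Mb. The fold enrichment that the authors' peak caller gave had a median of 1.49 and a maximum of 2.9 in far peaks, against a median of 1.54 and a maximum of 4.85 in the others. The median far peak had a mean of 41.1 H3K27me3 counts per library, against 60 for the others. Chromosome 12 had the highest share of far peaks, 33.3% of its 5000, and chromosome 17 the lowest, 14.6% of its 3609. The median distance to a coding gene was 236874 bp. The 5 farthest peaks lay 2187 to 2237 kb from one, in deserts beside Pik3c3 and Celf4 on chromosome 18 and Olfm4 on chromosome 14, and edgeR called none of the 5 higher or lower than input.

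As a whole, far peaks held less H3K27me3 relative to input than the peaks near genes. H3K27me3 over input of summed counts, where 1 is all peaks of the 18 chromosomes, was 0.916 ± 0.00772 in far peaks and 1.02 ± 0.00134 in the others (SD, n = 8 conditions). The far ratio was 0.91 and 0.911 in KO transgene at 48 h and 0 h, 0.913 and 0.905 for the line labelled KO control, 0.915 and 0.924 in WT transgene, and 0.925 and 0.926 in WT control. It was below the ratio of the other peaks in all 8 conditions, at 0.902 ± 0.0088 of it. The exact two-sided sign-flip permutation test gave p = 0.00781 over the 8 conditions and p = 0.125 over the 4 lines, in each case the smallest p possible.

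The decline lay mostly within the first steps from the gene. The ratio was 1.066 ± 0.0043 in peaks that overlap a coding gene, 0.9534 ± 0.0106 up to 10 kb away, 0.927 ± 0.0045 at 10 to 100 kb, 0.9191 ± 0.00703 at 100 to 200 kb, 0.9165 ± 0.00867 at 200 to 500 kb, 0.8982 ± 0.0117 at 500 to 1000 kb and 0.9116 ± 0.0101 beyond 1000 kb (SD, n = 8). The bin at 500 to 1000 kb was below the one at 200 to 500 kb in all 8 conditions, while beyond 1000 kb the values overlapped both. The typical peak differed little, with a median log2 over input of -0.20 in far peaks and -0.21 in the others. The strong ones differed in number.

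**Figure D1:**
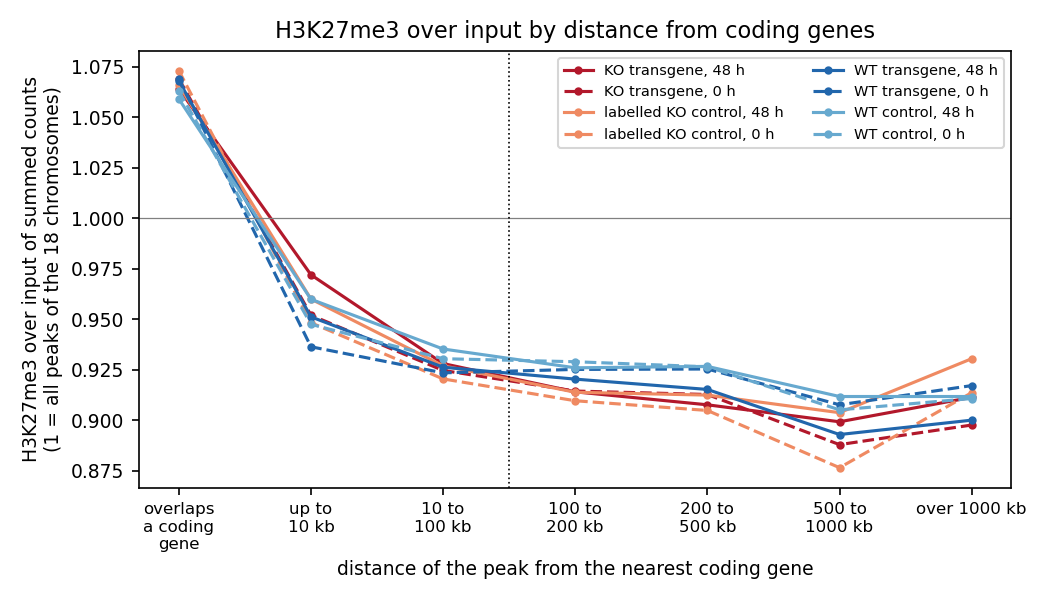
H3K27me3 over input of summed counts (y axis, 1 = all peaks of the 18 chromosomes) by distance of the peak from the nearest coding gene (x axis), with 1 line for each of the 8 conditions and the dotted line at 100 kb. All 8 conditions are above 1 over coding genes and below 1 in every bin away from them.

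Tested peak by peak, 557 of 22191 far peaks were higher than input and 6401 lower (edgeR, quasi-likelihood F test, Benjamini-Hochberg adjusted p under 0.05). That is 2.51% higher, against 8.69% of the other peaks and 7.76% of all peaks, and 28.8% lower, against 36% of the others and of all. A ratio of 1 stands for the mean consensus peak, so a peak lower than input can still carry the mark. Trimmed mean of M-values (TMM) scaling in place of total counts moved the median of all peaks from -0.21 to -0.05 and gave 1502 higher and 1324 lower far peaks. The far peaks called higher had a median width of 9767 bp, against 1389 bp for those with no call. By distance their share was 3.41% between 100 and 200 kb, 2.24% between 200 and 500 kb, 0.772% between 500 and 1000 kb and 1.83% (14 of 764) beyond.

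Of the 5 highest far peaks over input, 4 had a gene of the neuronal adhesion and synapse list as the nearest coding gene, at distances of 383 to 1591.5 kb. This list was chosen with earlier results of these data known, and 1579 of the 22200 far peaks were nearest to its genes. Only 1.27% of those 1579 were higher than input, against 2.51% of all far peaks. The highest log2 over input, 1.06 ± 0.22 (SE), was that of a 1.07 kb peak (chr5:56123618-56124687) 1591.5 kb from Pcdh7, a protocadherin gene, though at only 1.48 to 2.69 H3K27me3 CPM (counts scaled to 1000000 per library). Next was a 9.49 kb peak (chr3:43936236-43945730) 1432.7 kb from Pcdh10, another protocadherin gene, at 1.05 ± 0.08. There, H3K27me3 was 22.4 and 15.4 CPM in KO transgene at 48 h and 0 h, 19 and 17.9 for the line labelled KO control, 18.4 and 17.9 in WT transgene, and 16.6 and 12.8 in WT control, while input ran from 6.81 to 9.83 CPM. No H3K27me3 library overlapped the range of input. Ctnna2, which encodes a neuronal catenin, Cdh10, a cadherin gene, and Kirrel3, a synaptic adhesion gene, were the nearest coding genes of the peaks that followed, at 0.81 ± 0.09, 0.78 ± 0.07 and 0.76 ± 0.13. These 3 overlapped the pseudogenes Gm9008, Gm35969 and Gm10698. The other 5 of the 10 highest lay near Med13l, Cypt12, Gm46320, Gm51483 and Slit2. The peaks near Gm51483 (0.68 ± 0.29) and Slit2 (0.67 ± 0.20) each had an input library at 0 counts, which allows up to 3, counting error only.

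The widest far peaks ranged from strongly enriched to level with input. A 77.8 kb peak (chr5:119019432-119097198) lay 254 kb from Med13l, which encodes a Mediator subunit, toward the T-box gene Tbx3, over the lncRNA genes Gm30895 and Gm31034. Its ratio over input was 1.68 ± 0.0968 (SD, n = 8). The widest far peak, 93.1 kb (chr4:124137499-124230622) between Rragc and the neural POU gene Pou3f1, was at 1.43 ± 0.0522. The remaining 3 of the 5 widest, near Dysf, Prox1 and Tmtc1, were at 1.03 ± 0.08, 1.14 ± 0.0852 and 1.13 ± 0.0854. All were below the ratios of the 2 wider peaks. A 48 kb peak (chr12:106437367-106485348) over 1700121N20Rik and 2 other lncRNA genes was at 1.62 ± 0.0595, and a 19.2 kb peak (chr3:17779208-17798410) over Mir124-2hg, the host gene of the neuronal miRNA gene Mir124a-2, at 1.64 ± 0.139.

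The far peaks fell into 1122 intervals between coding genes, and 608 of these held 10 or more. The interval with the most, 170 peaks, lay between Gm15501 and Tenm4, a teneurin gene of neuronal wiring, at 0.873 ± 0.0392 of input. The 135 peaks between the cadherin genes Cdh8 and Cdh11 were at 0.937 ± 0.0177 and included 1 peak higher than input. By contrast, 10 of 18 peaks between Vrk1 and Gm46320 were higher than input, as were 15 of 50 between Mn1 and Cryba4 and 10 of 57 between Med13l and Tbx3. Their ratios were 1.22 ± 0.0284, 1.15 ± 0.0311 and 1.15 ± 0.0217.

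Peaks were also read by the function of the nearest coding gene, using lists chosen with earlier results of these data known. Of 1285 far peaks nearest to developmental regulators, 49 (3.81%) were higher than input, against 2.51% of all far peaks, and their summed ratio was 0.949 ± 0.00907. The 1342 other peaks of the same list were at 1.29 ± 0.0341, with 14.5% higher. Irx1 and Irx2, Iroquois homeobox genes, had 5 of 49 and 4 of 26 far peaks higher than input, and Tbx3 had 4 of 33. Of 1579 far peaks nearest to neuronal adhesion and synapse genes, 20 (1.27%) were higher, among them 1 of 26 nearest to Pcdh7, 2 of 27 to Pcdh10, 1 of 31 to Ctnna2 and 1 of 6 to Cdh10. None of the 13 far peaks nearest to a chemoreceptor gene was higher.

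Annotation within far peaks went with some differences in level. Of the 22200, 17843 (80.4%) overlapped no annotated gene and 3872 (17.4%) an lncRNA gene. The summed ratio was 0.95 ± 0.00502 over lncRNA genes, with 4.42% of peaks higher than input, and 0.903 ± 0.00905 where no gene was annotated, with 1.97% higher. Peaks over pseudogenes (435) were at 0.963 ± 0.0106, and those over immunoglobulin or T cell receptor segments (49), which the table does not class as protein-coding, at 0.879 ± 0.0155 with 0 higher.

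The 16 peaks over miRNA genes had the highest summed ratio of these classes, 1.1 ± 0.0314. Their median log2 over input was -0.09 and their median width 7941 bp, against -0.20 and 1767 bp for all far peaks. Of the 16, 5 were lower than input (31.2%, against 28.8% of all far peaks) and 3 higher (18.8%, against 2.51%). The 3 higher were the peaks of Mir124a-2, Mir137 and Mir5118. The 35 kb Mir137 peak, 109 kb from Dpyd, was at a log2 of 0.33 ± 0.04. The 35.7 kb Mir5118 peak near Zpld1 was at 0.16 ± 0.03. The peak of Mir125b-2 was lower than input at -0.40 ± 0.11, while that of Mir125b-1, which gives the same mature 5p sequence, had no call at 0.06 ± 0.08.

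Few lncRNA promoters in far peaks were rich in CpG. Of 520 lncRNA promoters that lay within a far peak, 10 (1.92%) had 15 or more CpG, a limit chosen after the values were seen, against 12.3% of all 11588 lncRNA promoters of the same length. In far peaks higher than input the share was 8 of 100 (8%), and it was 0.37% in far peaks with no call and 0.667% in those lower than input. In the other peaks higher than input, 24.3% of 1352 lncRNA promoters had that many. The 9530059O14Rik promoter printed above lay in a 53.7 kb peak at a log2 over input of 0.61 ± 0.03 and the Lncpint promoter in a 17.7 kb peak at 0.39 ± 0.04. The Gm46788 promoter, with 2 CpG, lay in a 13.2 kb peak that was as strong, at 0.60 ± 0.05.

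In the comparison of KO with WT lines, far peaks took a smaller part of the H3K27me3 counts in KO lines. They held 13.98% and 13.98% of the counts of the 18 chromosomes in KO transgene at 48 h and 0 h and 13.87% and 13.85% for the line labelled KO control, against 14.1% and 14.14% in WT transgene and 14.3% and 14.31% in WT control. The groups did not overlap, with a mean difference of -0.294 percentage points (13.92 ± 0.0677 in KO and 14.21 ± 0.108 in WT lines, SD, n = 4 each). The exact two-sided permutation test gave p = 0.0286, the smallest that 4 against 4 allows. Adjusted over the 9 shares and ratios tested, this permutation p was 0.129, and with whole lines exchanged the exact p was 0.333, the smallest that 2 against 2 allows, so the difference did not pass. Input shares were 15.3 ± 0.0702% in KO and 15.41 ± 0.0708% in WT lines and overlapped (exact p = 0.0857). With all counts of the library as denominator the differences were -0.556 percentage points for H3K27me3 and -0.436 for input, each at the smallest permutation p of 0.0286 before adjustment, so input then differed nearly as much. With only peaks of a caller fold of at least 2, which 21982 of the 22200 far peaks did not reach, the H3K27me3 difference turned to 0.00633 percentage points. Transgene against control lines and 48 h against 0 h differed by -0.0341 and -0.00578 percentage points, within the spread of the libraries.

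**Figure D2:**
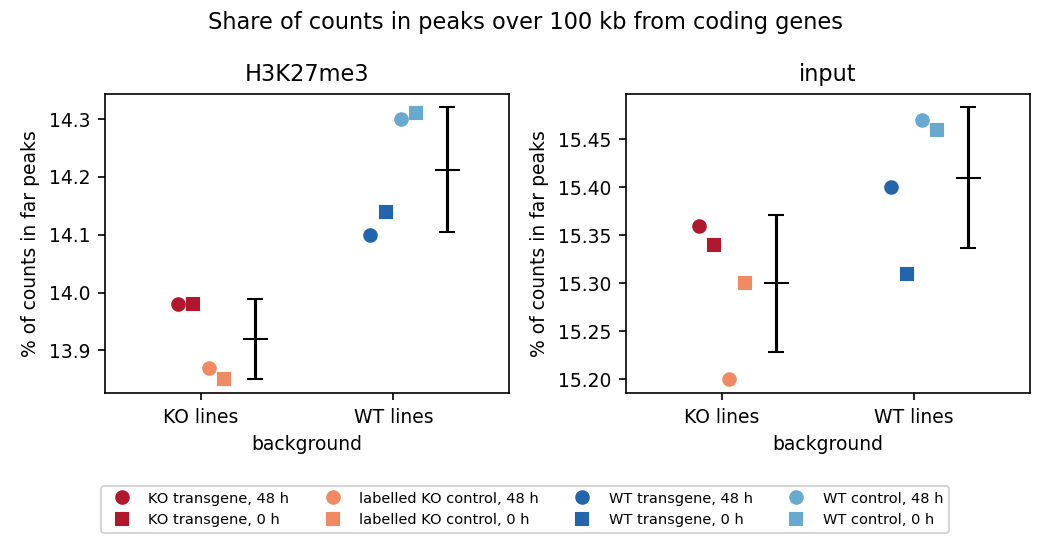
Percent of each library's counts on the 18 chromosomes that lay in far peaks (y axis), for H3K27me3 (left) and input (right), in KO lines and WT lines, with circles for 48 h, squares for 0 h and bars for mean ± SD (n = 4). The y axes do not start at 0. The H3K27me3 values of the groups do not overlap, from 13.85% to 13.98% in KO and from 14.1% to 14.31% in WT lines, and those of input do.

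The share of single peaks called higher was smaller among far peaks than among the others, and the share called lower was alike, with no test of either difference. In KO against WT lines, 67 of 22200 far peaks were higher and 145 lower (edgeR, adjusted p under 0.05), or 0.302% and 0.653%. Of the other peaks, 1.23% were higher and 0.636% lower, and of all peaks 3.8% and 0.622%. The share of higher calls was 1.41% of peaks over coding genes, 1.64% up to 10 kb from them, 0.797% at 10 to 100 kb, 0.385% at 100 to 200 kb, 0.288% at 200 to 500 kb, 0.067% at 500 to 1000 kb and 0.393% (3 of 764) beyond. Among peaks with a mean of 200 or more counts 1.48% of 1484 far and 3.18% of 12444 other peaks were higher, and 2.16% and 1.33% lower. The median log2 difference was -0.040 in far peaks and -0.009 in the others, and it was lower in far peaks on all 18 chromosomes. In input the medians were -0.026 and -0.017, and 3 of 20824 far peaks were higher and 8 lower, against 0.0223% and 0.0822% of the others. Over all peaks, 1.87% were higher in input and 0.0707% lower, and the part of input in the H3K27me3 calls over all peaks was not tested.

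The balance of these calls moved with the scaling and the libraries. With total counts, 46 far peaks were higher and 260 lower. With chromosomes 11, X and Y and scaffolds left out of the fit, 44 were higher and 30 lower, against 715 and 164 of the other peaks, and the medians were -0.024 and 0.006. In both fits the share of higher calls was smaller in far peaks than in the others. Falls outnumbered rises within far peaks with total counts and did not with these chromosomes left out. With both times of a line summed, which leaves 1 library for each line, 53 were higher and 80 lower. DESeq2 called 4 higher and 1 lower, but gave no adjusted p to 13862 of the 22200 far peaks. Without the line labelled KO control at 48 h or 0 h the counts were 32 and 76 or 40 and 82, without WT control at 48 h or 0 h 34 and 66 or 34 and 85, and without KO transgene at 0 h 52 and 95.

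Called far peaks were larger than most but seldom strong. The median width was 5248 bp for the 67 higher and 4717 bp for the 145 lower. Of the 67, 10 were higher than input and 20 lower, and of the 145, 3 were higher and 65 lower. Among all far peaks, 2.51% were higher than input and 28.8% lower. Median log2 differences between KO and WT lines were 0.34 for the 67 and -0.36 for the 145. Input had a median of -0.02 at both, and none of the called peaks was called in input. The KO and WT libraries did not overlap in 44 of the 67 and 101 of the 145, as in 4.77% of all far and 5.31% of other peaks. Net of input, in 1 model over both assays, 1 far peak rose (0.00451%, against 0.0634% of other peaks) and 2 fell (0.00901%, against 0.0108%).

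**Figure D3:**
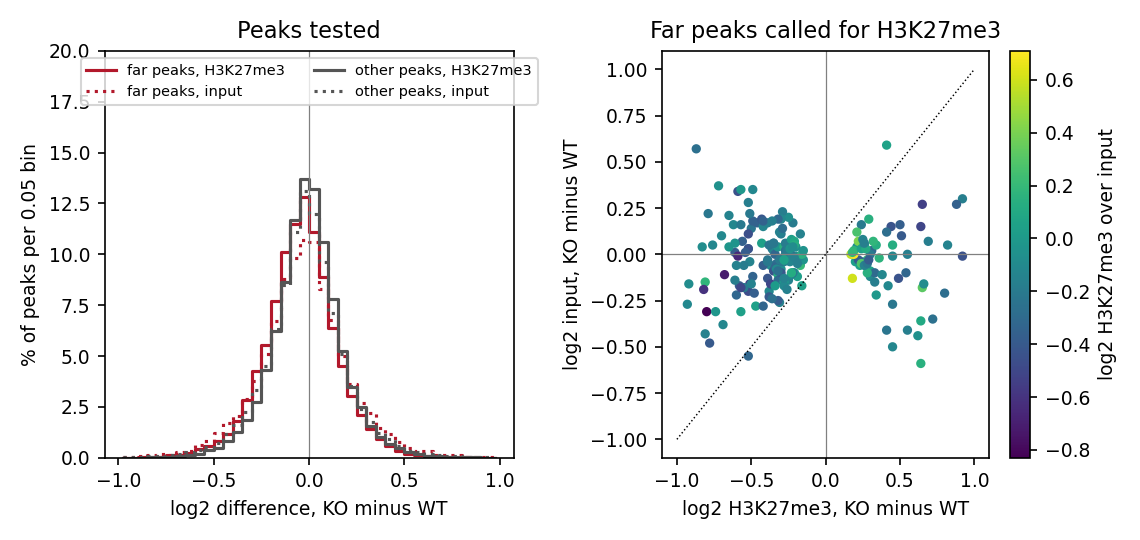
Left, distribution of log2 differences KO minus WT (x axis, 0.05 bins) over far and other peaks as percent of peaks (y axis) for H3K27me3 (solid) and input (dotted). Right, log2 difference in input (y axis) against that in H3K27me3 (x axis) for the far peaks called for H3K27me3 that have an input value, coloured by log2 H3K27me3 over input, with the dotted line at equality. The far H3K27me3 curve has its median at -0.040, that of the other peaks at -0.009, and input values of the called peaks spread around 0.

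The 8 largest rises, among peaks at or above the median depth that moved the same way in all 4 matched pairs of libraries, lay near Uaca, Plpp3, Ythdf3, Ralgapa2, Dnajb9, Bambi, Slc24a2 and Epha7. The largest was a 2.47 kb peak (chr9:61066024-61068496) 186 kb from Uaca, a coiled-coil protein gene. It had 5.36 and 5.51 CPM in KO transgene at 48 h and 0 h and the line labelled KO control 5.82 and 4.72, against 3.18 and 3.71 in WT transgene and 3.19 and 3.25 in WT control. Every KO library was above every WT library, with a log2 difference of 0.69 ± 0.14 (edgeR, adjusted p = 0.000145) and 0.07 ± 0.19 in input. The peak 720 kb from Ythdf3, which encodes a reader of N6-methyladenosine, differed by 0.55 ± 0.12 (chr3:16937467-16940885; edgeR, adjusted p = 0.000485), with 6.38 to 7.78 CPM in KO and 4.32 to 5.82 in WT libraries. The peak 119 kb from Epha7, an ephrin receptor gene of axon guidance, differed by 0.45 ± 0.11 (chr4:29086868-29090886; edgeR, adjusted p = 0.0018), with 8.02 to 10.1 CPM in KO and 5.53 to 7.94 in WT libraries and an input difference of -0.27 ± 0.15. The other 5 rose by 0.49 to 0.55. None of the 8 was called higher than input. With each condition left out in turn, the calls near Uaca and Ythdf3 held in 8 of 8 fits, those near Ralgapa2, Dnajb9 and Epha7 in 6, that near Plpp3 in 4 and those near Bambi and Slc24a2 in 2. Ralgapa2 and Epha7 were lost without WT control or the line labelled KO control at 48 h, Dnajb9 without either of these lines at 0 h, and Plpp3 without WT control or KO transgene at 0 h or the line labelled KO control at either time. Bambi was called only without KO transgene at 48 h or the line labelled KO control at 0 h, and Slc24a2 only without WT control or the line labelled KO control at 48 h. Bambi was also lost with total counts and with chromosomes 11, X and Y and scaffolds left out, and Ythdf3, Ralgapa2, Dnajb9 and Epha7 with DESeq2.

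The 8 largest falls lay near Stim2, Rab28, Obox7, Eif4g2, Kcnh8, Cdh6, Plekhb2 and Tenm3. At the 3.38 kb peak (chr5:54490819-54494204) 370 kb from Stim2, a sensor of calcium in the endoplasmic reticulum, KO transgene had 5.02 and 3.78 CPM at 48 h and 0 h and the line labelled KO control 3.28 and 4.04, against 6.37 and 7.57 in WT transgene and 4.61 and 6.12 in WT control. The groups overlapped by 1 library on each side, and the difference was -0.61 ± 0.13 (edgeR, adjusted p = 0.000431), with -0.14 ± 0.18 in input. The peak 119 kb from Eif4g2, a translation initiation factor gene, fell by 0.57 ± 0.13 on the log2 scale (chr7:111202501-111206005; edgeR, adjusted p = 0.000888), with 3.53 to 4.96 CPM in KO and 5.32 to 7.66 in WT libraries. The peak 1839.3 kb from Tenm3, a teneurin gene, fell by 0.52 ± 0.15 (chr8:51362124-51364504; edgeR, adjusted p = 0.0232), with 2.58 to 3.35 CPM in KO and 3.94 to 4.91 in WT libraries. The other 5 fell by 0.52 to 0.60 on this scale. Of the 8, none was higher than input, and their log2 values over input ran from -0.50 to -0.18. Leaving out a condition, the calls near Stim2 and Eif4g2 held in 7 of 8 fits, that near Rab28 in 6, those near Obox7 and Kcnh8 in 4, those near Cdh6 and Tenm3 in 2 and that near Plekhb2 in 1. Stim2 was lost without KO transgene at 0 h, Eif4g2 without WT transgene at 48 h, Rab28 without WT control or the line labelled KO control at 48 h, and Obox7 without either time of these lines. Kcnh8 was lost without KO transgene or WT control at 0 h, the line labelled KO control at 48 h or WT transgene at 48 h. Cdh6 was called only without KO transgene or WT transgene at 48 h, Tenm3 only without WT transgene at 0 h or WT control at 48 h, and Plekhb2 only without WT control at 48 h. With chromosomes 11, X and Y and scaffolds left out, Obox7, Kcnh8, Cdh6, Plekhb2 and Tenm3 were lost, with DESeq2 Stim2 and Eif4g2, and with both times of a line summed Cdh6 and Plekhb2.

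**Figure D4:**
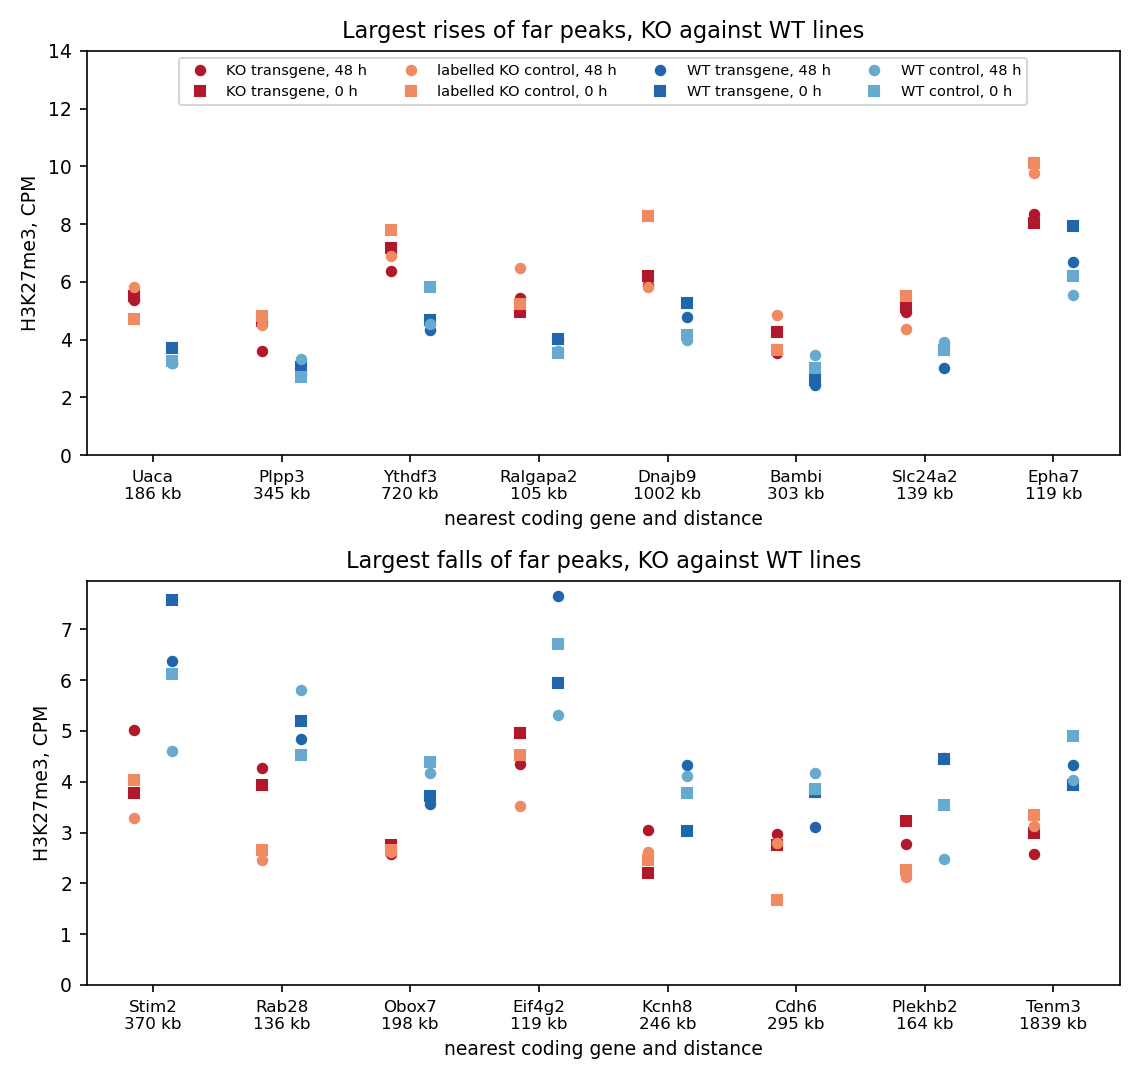
H3K27me3 in CPM (y axis) at the 8 far peaks with the largest rises (top) and falls (bottom) in KO against WT lines, by nearest coding gene and distance (x axis). Each point is 1 library, KO left of WT, with circles for 48 h and squares for 0 h, and the rises near Uaca run from 4.72 to 5.82 in KO and from 3.18 to 3.71 in WT libraries.

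Some calls shared an interval. The 212 called far peaks lay in 162 of the 1122 intervals, and 37 intervals held 2 or more. Only 6 of them held both directions. Of the 1122 intervals, 608 held 10 or more far peaks, and whether calls shared intervals more than other far peaks was not tested. The clusters that follow were chosen after their values were seen. Between Uaca and Tle3, which encodes a Groucho corepressor, 26 of 28 far peaks were above 0, with a median of 0.16 against 0.05 in input, and 4 were called. These were the Uaca peak above, a 1.29 kb neighbour at 0.88 ± 0.19, a 15.4 kb peak over the lncRNA genes Gm33914 and Gm34004 at 0.27 ± 0.06 and a 0.775 kb peak over I730028E13Rik at 0.72 ± 0.22. The 15.4 kb peak (chr9:61110478-61125857) had 34.1, 35.3, 39.5 and 36.1 CPM in KO and 31.5, 29.8, 29 and 30.1 in WT libraries, without overlap. The first 3 calls held with each condition left out, and the I730028E13Rik call was lost without either time of WT control or of the line labelled KO control (0.48 to 1.09). The I730028E13Rik call was also lost with chromosomes 11, X and Y and scaffolds left out.

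**Figure D5:**
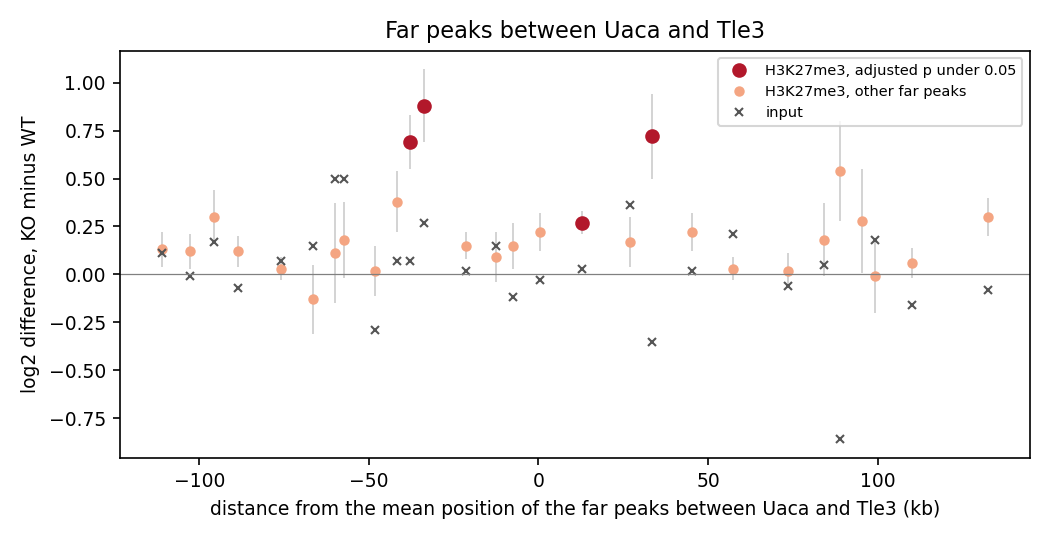
Log2 difference KO minus WT (y axis) of each far peak between Uaca and Tle3 against its distance from their mean position (x axis, kb), for H3K27me3 (circles, bars ± SE, dark where called) and input (crosses). Of 28 peaks, 26 are above 0 for H3K27me3. Input is above 0 at 17, and the peak at chr9:61200362-61200740 has no input value.

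Falls shared the gene desert on both sides of Tafa5, which encodes a secreted neuronal chemokine-like protein. Between Tbc1d22a and Tafa5, 4 of 83 far peaks fell and between Tafa5 and Zdhhc25 2 of 62, where 0.653% of all far peaks fell, and the medians were -0.10 in both. The largest peak, 17.2 kb (chr15:88093238-88110393), had 30.9, 26.1, 27 and 28.5 CPM in KO and 35.2, 31.3, 33.1 and 29.1 in WT libraries, a difference of -0.20 ± 0.06 (edgeR, adjusted p = 0.0241), with 0.04 ± 0.08 in input. All 6 were small, from -0.32 to -0.20, the 17.2 kb peak overlapped between the groups, and each was lost in 3 to 6 of the 8 fits with a condition left out. The 17.2 kb peak was lost without KO transgene at 0 h, the line labelled KO control at 48 h, WT transgene at either time or WT control at 48 h. All 6 were lost with DESeq2, 5 with chromosomes 11, X and Y and scaffolds left out and 4 with both times of a line summed. Between Meis2 and Tmco5, 3 of 32 far peaks rose, against 0.302% of all far peaks, and between Cdh11 and Cdh5 4 of 115 fell, against 0.653%. As these intervals were picked for their calls, the counts are a description.

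A further 3 peaks over known non-coding genes were also chosen after their values were seen. The Mir124-2hg peak was higher in KO lines by 0.19 ± 0.05 (edgeR, adjusted p = 0.00225), with 65.5, 70.6, 68.3 and 71.9 CPM in KO and 58.3, 62.6, 59.4 and 61.5 in WT libraries, no overlap and 0.00 ± 0.07 in input. This call held with every condition left out and was lost with both times of a line summed. The peak over Lncenc1, an lncRNA of naive stem cells, rose by 0.24 ± 0.06 (chr13:97448832-97463256; adjusted p = 0.00353 by edgeR), with 28.4, 28.6, 34.7 and 34.4 CPM in KO and 23.9, 28.5, 26.4 and 27.8 in WT libraries. The larger values lay in the line labelled KO control, and the groups overlapped. Without that line at 48 h, or without either time of WT control, the Lncenc1 call was lost (0.19 to 0.31), as it was with DESeq2. The 1.14 kb peak over Mirg with miR-541, miR-409, miR-412 and miR-369 fell by 0.65 ± 0.20 (chr12:109742415-109743557; edgeR, adjusted p = 0.0327), with 1.22, 2.6, 2.05 and 1.18 CPM in KO and 2.27, 2.45, 3.26 and 3.25 in WT libraries. It was shallow, its groups overlapped, and the call was lost in 5 of the 8 fits with a condition left out, those without either time of WT control or of the line labelled KO control and without KO transgene at 48 h (-0.99 to -0.40). With chromosomes 11, X and Y and scaffolds left out the Mirg call was lost too.

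The 3 calls net of input were near Phlda1, Pkhd1 and Sgk1. The 14.3 kb peak (chr10:21738707-21753005) 129 kb from Sgk1, a serum- and glucocorticoid-induced kinase gene, had 27.7, 28, 27.2 and 24.2 CPM in KO and 31.5, 31.2, 31.8 and 30.7 in WT libraries. H3K27me3 differed by -0.22 ± 0.06 and input by 0.17 ± 0.08, so the net -0.40 ± 0.09 (edgeR, adjusted p = 0.0423) came from both. The net values were 0.83 ± 0.20 near Phlda1 and -0.87 ± 0.20 near Pkhd1, with input at -0.41 ± 0.16 and 0.35 ± 0.16. With a condition left out, Phlda1 was called only without WT transgene at 48 h, Pkhd1 only without KO transgene at 48 h, and Sgk1 only without KO transgene at 0 h or WT transgene at 48 h. All 3 were lost with DESeq2 and with both times of a line summed, Phlda1 also with chromosomes 11, X and Y and scaffolds left out, and Sgk1 with RLE size factors.

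Transgene against control lines gave few calls. By edgeR, 5 far peaks were higher (0.0225%, against 0.0297% of the other peaks) and 1 lower (0.0045%, against 0.0202%), and DESeq2 called 0. The 5 lay near Ndst3, Mctp2, Stim2, Begain and Tmem132c, and with both times of a line summed the calls near Mctp2 and Tmem132c were lost. The 10.5 kb peak (chr5:126799338-126809807) 432 kb from Tmem132c, over the lncRNA gene Gm40331, had 19.1 and 19 CPM in KO transgene and 22 and 21.9 in WT transgene, against 14.4 and 15.7 for the line labelled KO control and 18.9 and 17.1 in WT control. Each transgene line was above its control line, by 0.31 ± 0.07 in all (edgeR, adjusted p = 0.0245), with -0.02 ± 0.10 in input. The peak near Ndst3, a heparan sulfate enzyme gene, had the largest difference, 1.12 ± 0.21, at 1.73 to 3.26 CPM in transgene and 0.831 to 1.64 in control libraries, but input differed there by 0.96 ± 0.27. The fall, 310 kb from Psmd7, a proteasome subunit gene, was -0.49 ± 0.11 with -0.33 ± 0.15 in input. The number of far peaks called higher was 0 without WT transgene at 0 h, 2 without WT control at 48 h, 3 without KO transgene at 0 h, and 1 without KO transgene at 48 h or the line labelled KO control at 48 h or 0 h. Input gave 0 calls in far peaks, against 0.00139% higher in the others, with 976 of 20824 far peaks at an unadjusted p under 0.05.

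Between 48 h and 0 h, 1 far peak was higher and 1 lower (0.0045% each), against 0.00809% higher and 0.124% lower of the other peaks. The fall was a 9.49 kb peak over Lncpint (chr6:31111024-31120513), 152 kb from Klf14. It had 14.6 CPM at 48 h against 16.4 at 0 h in KO transgene, 14.6 against 18.8 in the line labelled KO control, 13.5 against 17 in WT transgene and 15.1 against 18.7 in WT control. H3K27me3 was lower at 48 h in all 4 lines, by -0.29 ± 0.07 (edgeR, adjusted p = 0.046), with 0.05 ± 0.10 in input. The rise, 531 kb from Ctnna3, was a peak of 0.39 kb with 1.02 to 1.84 CPM at 48 h and 0.393 to 1.11 at 0 h. Both calls were lost with any 1 condition left out, at log2 values of -0.33 to -0.27 and 0.95 to 1.46. DESeq2 called 0, but gave no adjusted p to 21895 of the 22200 far peaks. Of the far peaks higher than input none fell, while 81 of the 6440 other peaks higher than input did, a difference that was not tested. Their medians were -0.015 and -0.022. Input gave 0 calls, with 1016 of 20824 far peaks at an unadjusted p under 0.05.

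Induction, which sets the change over 48 h in transgene lines against that in control lines, gave 0 calls among 22200 far peaks by edgeR, against 0 higher and 4 lower (0.00539%) of the other peaks. At an unadjusted p under 0.05 there were 1004 far peaks, 4.52%. DESeq2 and limma-voom called 0 as well, and the median was 0.00. Input gave 0 calls and 923 of 20824 at an unadjusted p under 0.05.

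At the distance limit, the 3 peaks just inside it (100007, 100012 and 100014 bp from Smim20, Acpp and Arhgef10l) had log2 values over input of -0.02, -0.52 and -0.43. The 3 just outside (99996, 99990 and 99987 bp from Trib2, Glul and Gpr37) had -0.43, -0.47 and 0.17.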

How the data were processed

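The authors deposited raw counts of reads per consensus peak for 16 libraries and a peak list with, per the file headers, a score, a fold enrichment (ratio) and a -log10 q-value for each peak. Per the submitters' processing notes the build was mm10 and the tools included MACS2 2.2.71, BWA 0.7.17-r1188, DESeq2 1.26.0 and featureCounts, with no roles stated. The sources used here do not say which libraries were used for calling peaks, nor whether starts count from 0 or 1, so they are printed as deposited.

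Distances were taken to 21795 protein-coding spans of the RefSeq table, without 328 genes placed in the first 3000000 bp of an autosome, where the assembly has a gap. Members and lists were chosen with earlier results of these data known. Counts were tested with edgeR 4.0.16 (quasi-likelihood, filterByExpr, Benjamini-Hochberg over all peaks; R 4.3.3). Scaling was TMM, except total counts for H3K27me3 against input. Background and transgene each compare 2 lines with 2, both times of a line taken as separate libraries, and time has the line as a block. Alternatives included DESeq2 1.42.0 and limma-voom 3.58.1. Shares were tested by exact permutation with SciPy 1.17.1. Counting intervals and floors (3 counts) cover counting error only.

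Peaks named were the 8 largest called rises and falls of each contrast, at or above the median far-peak count of 41.1 and moving the same way in all 4 matched pairs, the 10 highest over input, the 5 widest, the 5 farthest and the 3 on each side of the limit. Those named outside this rule were chosen after their values were seen.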

Additional observations from a re-analysis of the deposited data

Results flagged for a closer look

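In 3 groups of 4 libraries, 1 library stood apart from the rest by Dixon's test at 95%, which flags about 1 in 20 groups by chance. At the far peak near Dnajb9 the line labelled KO control at 0 h had 8.27 CPM, above the 5.82 to 6.21 CPM of the other KO libraries. At the far peak near Pkhd1, KO transgene at 0 h had 4.56 CPM, below the 5.5 to 5.63 CPM of the other KO libraries. At the far peak 186 kb from Uaca, WT transgene at 0 h had 3.71 CPM, above the 3.18 to 3.25 CPM of the other WT libraries and below all KO libraries.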

How the results depend on the processing

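No pairing of replicates was possible because each group has 1 library and the labels give no replicate numbers. The time and induction contrasts had the line as a block. Enrichment over input and the values net of input had the condition as a block, which sets each H3K27me3 library beside its input. Counts below are far peaks higher and lower, and the number tested differed between settings. A caller fold of at least 2 left 21982 of the 22200 far peaks without a test. A mean count of at least 50 left 12931 to 17948 without one, depending on the comparison. DESeq2 gave no adjusted p to 5327 far peaks for enrichment and 13862 for KO against WT lines. For input in KO against WT lines it gave none to 20277, and for time none to 21895. For enrichment over input, TMM gave 1502 and 1324, RLE size factors 1498 and 1331, DESeq2 339 and 2756, a caller fold of at least 2 21 and 95, a distance over 50 kb 877 and 9795, over 200 kb 247 and 3300, over 100 kb from any annotated gene 34 and 1078, and a mean count of at least 50 left 2922 lower. For KO against WT lines, DESeq2 gave 4 and 1, a caller fold of at least 2 6 and 5, leaving out chromosomes 11, X and Y and scaffolds 44 and 30, over 200 kb 32 and 88, and over 100 kb from any gene 8 and 24. Total counts gave 260 lower, both times summed 80 lower and over 50 kb 126 higher. Leaving out a condition gave 32 to 68 higher and 66 to 120 lower.

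For transgene lines, DESeq2 gave 0 and 0, over 100 kb from any gene 1 and 0, both times summed 3 higher, over 200 kb 2 higher and a caller fold of at least 2 0 higher. Falls numbered 2 with RLE, 3 with a mean count of at least 50 and 4 with total counts. With a condition left out there were 0 to 5 higher and 0 to 2 lower, and 0 to 1 higher in input. For time, DESeq2, no line block and over 100 kb from any gene gave 0 and 0. Falls numbered 0 with total counts, chromosomes left out and over 200 kb, 2 over 50 kb and with a mean count of at least 50, and 5 with limma-voom. The fits without a condition gave 0 to 1 higher and 0 to 2 lower. Induction gave 0 and 0 throughout.

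For input in KO against WT lines (3 and 8), DESeq2 and leaving out chromosomes gave 0 and 0, limma-voom 0 higher, a caller fold of at least 2 0 and 3, total counts 1 and 13, a mean count of at least 50 1 and 18, over 50 kb 5 and 16, both times summed 5 higher, over 200 kb 4 lower and over 100 kb from any gene 3 lower. Each condition left out in turn gave 1 to 5 higher and 3 to 12 lower. Net of input (1 and 2), DESeq2, both times summed, a caller fold of at least 2 and over 200 kb gave 0 and 0, over 100 kb from any gene 0 and 1, leaving out chromosomes 0 higher, RLE 1 lower, and over 50 kb and a mean count of at least 50 2 higher. Leaving out a condition gave 0 to 1 higher and 0 to 2 lower.

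Differences in shares (percentage points) and in the far over other ratio changed sign as follows. With a caller fold of at least 2, KO minus WT turned to 0.00633 for the H3K27me3 share and 0.0046 for the ratio, 48 h minus 0 h to 0.0129 for the H3K27me3 share, and transgene minus control to 0.0252 for the input share. With all counts as denominator, transgene minus control turned to 0.0605 for H3K27me3 and 0.0977 for input. Over 50 kb, 48 h minus 0 h turned to 0.0271 for H3K27me3 and 0.00118 for the ratio, and transgene minus control to 0.00322 for input. Over 100 kb from any gene, 48 h minus 0 h turned to 0.000361 for H3K27me3, -0.00885 for input and 0.00369 for the ratio, and over 200 kb to -0.00556 for input. Leaving out a condition, transgene minus control ran from -0.112 to 0.0406 for H3K27me3, from -0.0573 to 0.0316 for input and from -0.00674 to 0.00107 for the ratio. In the same fits, 48 h minus 0 h ran from -0.0858 to 0.0736, from -0.0346 to 0.0543 and from -0.00494 to 0.00288. The cause of these changes was not tested.

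The lower ratio of far than of other peaks kept its direction in all settings run. Of the values of named peaks under the alternatives, 420 kept their call and direction, 218 kept the direction and lost the call, and 0 turned. These peaks were chosen for their calls, and those named by rule also for moving the same way in all matched pairs. The 0 is therefore no check of direction. The robust dispersion estimate, chosen after seeing the data, lost none. All 102957 peaks passed the filter in H3K27me3, so leaving it out was no test there. Calls varied with depth: 0.0987% of far peaks with a mean under 25 counts were higher and 0.214% lower in KO lines, against 1.48% and 2.16% of those with 200 or more, and the cause was not tested.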
